A study of Homo sapiens with 8 samples.

Results

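The genes described here are 38 targets of the transcription factor p53 with roles in metabolism, DNA repair, growth arrest and cell death, chosen by symbol from a list that leaves out CDKN1A, MDM2, GDF15 and the BCL2 family. They are 38 of the 15041 coding genes listed in the 8 tables of the series, and each table lists 35 to 37 of them. These genes were chosen with earlier results of these data known, so their shares set beside those of all genes are a description. Cells of the human triple-negative breast cancer line MDA-MB-231 were picked one by one by mouth pipette and sequenced by a modified Smart-seq2 method with 3' libraries. The 4 groups of 2 libraries each were ATM knockdown (KD) cells given 5 Gy of ionizing radiation and cultured for another 4 h, untreated KD cells, wild-type (WT) cells given the same dose and time, and untreated WT cells. The study asked which transcripts change after irradiation with and without ATM, the kinase that signals DNA double-strand breaks. How ATM was knocked down is not stated in the sources used here, a single cell line was used, and nothing in the labels shows that the 2 libraries of a group came from different cultures, so p-values measure the spread between libraries, which may be technical.

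After DNA damage, ATM and its downstream kinases phosphorylate p53 and its inhibitor MDM2, p53 accumulates, and it binds paired copies of a short DNA motif near its targets. The targets act at different levels: some halt the cell cycle or feed back on p53, some repair DNA or supply nucleotides, some change metabolism and some prepare the cell for apoptosis. Many genes of the list are also transcribed under the control of other factors.

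The promoter letters of the members were searched for the p53 response element, which is the p53 half-site in 2 copies with 0 to 13 bases between them, on both strands. RefSeq promoters (GRCh38.p14, 250 bases before to 50 bases after each start) matched 31 of the 38 members by symbol. DDB2, which encodes the subunit of the UV damage sensor that binds damaged DNA, was the 1 matched member with a perfect element, against 10 of 35116 promoters (0.028%). With up to 1 mismatch DDB2 was still the only member, against 0.743% of all promoters. With up to 2 mismatches 6 members had a match, against 7.823% of all promoters. With up to 3 mismatches 17 members did, against 39.062%, and with up to 4 mismatches 27 members did, against 84.209%. The 31 members had 40 promoters, and a member counted if any of its promoters matched. The shares of all are over single promoters, so the 2 figures differ in unit and are not directly comparable. The DDB2 promoter is shown whole because it carries the perfect element, and the best match in the promoters of AEN, EPHA2, BTG1 and CCNG2 is shown because these members changed in the tests described further on. Capitals mark the half-sites and lower case the bases around or between them.
DDB2 promoter, plus strand, chr11:47214724-47215023: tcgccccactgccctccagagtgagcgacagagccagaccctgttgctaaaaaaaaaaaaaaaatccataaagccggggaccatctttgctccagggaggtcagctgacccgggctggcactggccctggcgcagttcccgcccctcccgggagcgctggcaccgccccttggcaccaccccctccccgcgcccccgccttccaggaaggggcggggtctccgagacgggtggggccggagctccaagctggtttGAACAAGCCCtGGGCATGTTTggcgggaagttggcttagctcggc
AEN best match, 2 mismatches: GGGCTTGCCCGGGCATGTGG
EPHA2 best match, 3 mismatches: AGAGATCCCTggGGGCTAATCC
BTG1 best match, 4 mismatches: GGACCCGCCTcctGAACTCTTTT
CCNG2 best match, 4 mismatches: GGACTGGCTCGGCAAAGCCA
The DDB2 element starts 5 bases after the annotated start of the promoter shown, and the AEN match 34 bases before its own (-34). DDB2 has another promoter, chr11:47214204-47214503, whose best match had 4 mismatches. The EPHA2, BTG1 and CCNG2 matches start at -239, -162 and -153. TNFRSF12A, which also changed, had no promoter entry under its symbol. A match describes letters only, and its absence from these windows says nothing of binding elsewhere.

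Of 378 cells, 363 had at least 1000 detected genes and 5000 counts and were kept, and the 15 left out were all KD cells. A library held 41 to 48 kept cells and 9321268 to 24256471 counts, with irradiated WT replicate 1 the shallowest. Mitochondrial genes took 10.2% and 10.6% of counts in irradiated KD libraries, 11.1% and 12.0% in untreated KD libraries, 9.76% and 10.3% in irradiated WT libraries, and 9.36% and 9.63% in untreated WT libraries. The line's defining markers VIM, CD44, AXL, CAV1, LGALS1 and FOSL1 were present in every library, while SPARC was near 0 (0 to 1.45 CPM, counts per 1000000 counts of the library). ESR1 and FOXA1 were at 0 in every library and PGR reached 0.289 CPM, while 3 further genes of the list of markers held to be low in this line were present, GATA3 at 35.7 to 54.8 CPM, ERBB2 at 8.06 to 25.5 CPM and EPCAM at 48.2 to 61.3 CPM in KD libraries and 15.5 to 30.4 CPM in WT libraries. The leukocyte markers summed to 0 to 1.80 CPM, with CD3E, CD68 and TYROBP among those at 0, and the fibroblast markers to 9.84 to 33.1 CPM. ATM stood at 13.02 and 14.03 CPM in irradiated KD libraries and 13.8 and 33.0 CPM in untreated KD libraries, against 28.0 and 33.2 CPM in irradiated WT libraries and 57.9 and 31.1 CPM in untreated WT libraries. The ATM difference between genotypes did not pass the test without irradiation (log2 -0.98, SE 0.413, adjusted p = 0.157) or with it (log2 -1.25, SE 0.419, adjusted p = 0.109), and untreated KD replicate 2 lay within the WT range. All KD libraries share one title suffix and all WT libraries another, so genotype and handling cannot be told apart.

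Levels are counts summed over the kept cells of a library and scaled to CPM, and in such sums fewer expressing cells and less RNA per cell cannot be told apart. Differences are log2 values from edgeR's quasi-likelihood test, adjusted over the 12456 genes tested with a threshold of 0.05. Of the 38 members 37 entered the test. SPATA18, which encodes a mitochondrial quality-control protein, was listed in irradiated WT replicate 2 alone, with 14 counts, all in 1 cell. BTG2, an antiproliferative protein, had counts in 3 libraries only, 11 in irradiated WT replicate 1 and 44 and 1 in the untreated WT libraries, and was at 0 in all 4 KD libraries. No fold is given for it.

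Few of these genes passed the test after irradiation. Taken over both genotypes, CCNG2 and BTG1 fell and TNFRSF12A rose, 3 of 37 members past the threshold against 1.49% of all genes tested (1 higher against 0.642%, 2 lower against 0.851%). Within KD cells alone 0 of 37 members passed edgeR's test, against 0.225% of all genes; 3 had an unadjusted p under 0.05, against 8.86% of all genes (1 higher against 4.05%, 2 lower against 4.81%), and the DESeq2 test called 1, against 1.42% of all genes, and limma 1, against 0.979%. Within WT cells alone 0 of 37 passed, against 1.65% of all genes; 7 had an unadjusted p under 0.05, against 13.9% of all genes (2 higher against 7.52%, 5 lower against 6.4%), DESeq2 called 4, against 4.7% of all genes, and limma 0, against 1.58%. The median log2 difference of the members was -0.04 in KD cells and -0.24 in WT cells, beside medians over all genes of 0.01 and -0.01. The difference was above 0 for 16 of 36 members in KD cells and 17 of 37 in WT cells, against 50.8% and 48.8% of all genes. BTG2, at 0 in the KD libraries, entered this count and the median in WT cells only. The irradiated and untreated libraries did not overlap for 17 members in KD cells (45.9% of the 37), against 39.5% of all genes, and for 19 in WT cells (51.4%), against 43.9%.

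**Figure D1:**
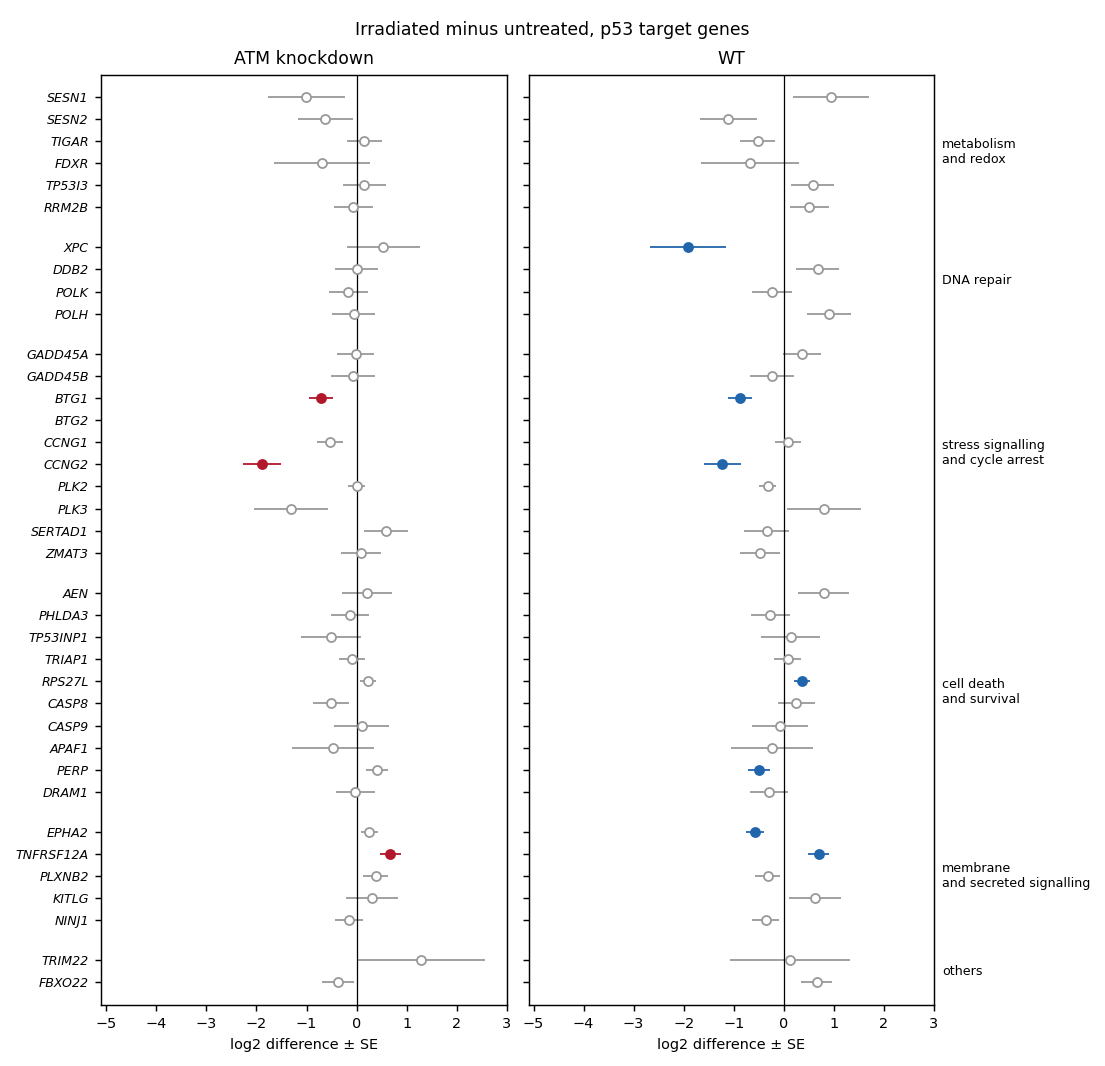
Log2 difference (points) with its SE (lines), irradiated minus untreated, in KD cells (left) and WT cells (right), for the members by role. Filled points have an unadjusted p under 0.05, and BTG2 is not drawn. In both panels CCNG2 and BTG1 lie left of 0 and TNFRSF12A right of 0, and these 3 are the filled points of the KD panel.

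Among the 10 members of stress signalling and cycle arrest, 2 fell and none rose in the test over both genotypes. CCNG2 (ENSG00000138764.14, chromosome 4, 77157151 to 77433388 in GENCODE 29 on GRCh38) encodes cyclin G2, an unusual cyclin linked to cell cycle arrest and also a target of FOXO factors. It had 6.86 and 9.59 CPM in irradiated KD libraries, against 28.5 and 33.3 CPM in untreated KD libraries. WT libraries held 17.2 and 21.4 CPM after irradiation, against 59.2 and 33.2 CPM without it. The irradiated libraries of each genotype lay below its untreated libraries without overlap. The log2 difference was -1.90 in KD cells (SE 0.379, adjusted p = 0.0598), -1.23 in WT cells (SE 0.370, adjusted p = 0.116) and -1.57 over both (SE 0.265, adjusted p = 0.00791). Cells with a CCNG2 count were likewise fewer, as given with the per-cell data.

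BTG1 (ENSG00000133639.4, chromosome 12, 92140278 to 92145897) encodes an antiproliferative protein that recruits the deadenylase complex to mRNAs. It had 103 and 92.6 CPM in irradiated KD libraries, against 185 and 136 CPM in untreated KD libraries. Its levels in WT cells were 122 and 157 CPM irradiated, against 330 and 191 CPM untreated. Every irradiated library was again below both untreated libraries of its genotype. The log2 difference was -0.71 in KD cells (adjusted p = 0.379), -0.88 in WT cells (adjusted p = 0.086) and -0.80 over both (SE 0.170, adjusted p = 0.0282). BTG1, CCNG1 and CCNG2 each have a named pseudogene, whose reads the counting could share.

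CCNG1, which encodes cyclin G1, a partner of protein phosphatase PP2A, had 59.0 and 55.4 CPM in irradiated KD libraries, against 87.3 and 78.3 CPM in untreated KD libraries. In irradiated WT libraries it had 75.2 and 96.6 CPM, against 104 and 59.6 CPM in untreated WT libraries. The KD groups did not overlap and the WT groups did, and neither difference passed (log2 -0.53, adjusted p = 0.594 in KD cells; 0.09, adjusted p = 0.93 in WT cells). PLK2, a polo-like kinase of centriole duplication and stress responses and the most counted member of the group, had 329 and 250 CPM in irradiated KD libraries, against 289 and 289 CPM in untreated KD libraries. Irradiated WT libraries stood at 215 and 194 CPM, against 288 and 231 CPM in untreated WT libraries. Only the WT groups were apart, and neither difference passed (0.01 and -0.32).

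PLK3, a related stress kinase, had 3.79 and 6.70 CPM in irradiated KD libraries, against 7.07 and 19.4 CPM in untreated KD libraries. WT libraries held 9.12 and 4.32 CPM after irradiation, against 5.15 and 2.65 CPM without it. It was lower without overlap in KD cells and overlapping in WT cells (log2 -1.31 and 0.80, adjusted p = 0.639 and 0.693). GADD45A and GADD45B, stress sensors that act on MAP kinase signalling, differed by -0.02 and -0.07 in KD cells and by 0.36 and -0.24 in WT cells. SERTAD1, a regulator of CDK4 and E2F activity, and ZMAT3, an RNA-binding zinc-finger protein, differed by 0.59 and 0.09 in KD cells and by -0.34 and -0.47 in WT cells. None of these 4 passed in either genotype.

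The 5 members of membrane and secreted signalling held the 1 member that rose. TNFRSF12A (ENSG00000006327.13, chromosome 16, 3018445 to 3022383) encodes Fn14, the receptor of the cytokine TWEAK. It had 324 and 438 CPM in irradiated KD libraries, against 278 and 202 CPM in untreated KD libraries. Its levels in WT cells were 402 and 316 CPM irradiated, against 208 and 243 CPM untreated. All irradiated libraries lay above all untreated ones. The log2 difference was 0.68 in KD cells (SE 0.205, adjusted p = 0.277), 0.69 in WT cells (SE 0.205, adjusted p = 0.11) and 0.69 over both (SE 0.145, adjusted p = 0.0273). The call was lost without the 65 cells whose total exceeded 2 times the median of their library and without irradiated KD replicate 2, with adjusted p up to 0.0849. The gene's span overlaps CLDN6 on the other strand, and whether counting used the strand is not given.

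EPHA2 (ENSG00000142627.12, chromosome 1, 16124337 to 16156087) encodes a receptor tyrosine kinase for ephrin-A ligands. It had 116 and 117 CPM in irradiated KD libraries, against 98.5 and 97.4 CPM in untreated KD libraries. In irradiated WT libraries it had 149 and 191 CPM, against 256 and 259 CPM in untreated WT libraries. The groups did not overlap in either genotype, being higher after irradiation in KD cells and lower in WT cells. Neither difference passed alone (log2 0.25, SE 0.175, adjusted p = 0.707 in KD cells; -0.58, SE 0.174, adjusted p = 0.119 in WT cells).

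PLXNB2, a semaphorin receptor, had 84.0 and 68.3 CPM in irradiated KD libraries, against 49.5 and 68.1 CPM in untreated KD libraries. Irradiated WT libraries stood at 77.8 and 67.0 CPM, against 78.2 and 105 CPM in untreated WT libraries. Like EPHA2 it was higher in KD cells and lower in WT cells, with the nearest libraries almost level, and neither difference passed (0.38 and -0.32). KITLG, the ligand of the receptor KIT, differed by 0.31 in KD cells and 0.63 in WT cells, and NINJ1, a protein of plasma membrane rupture, by -0.15 and -0.36, also short of the threshold.

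**Figure D2:**
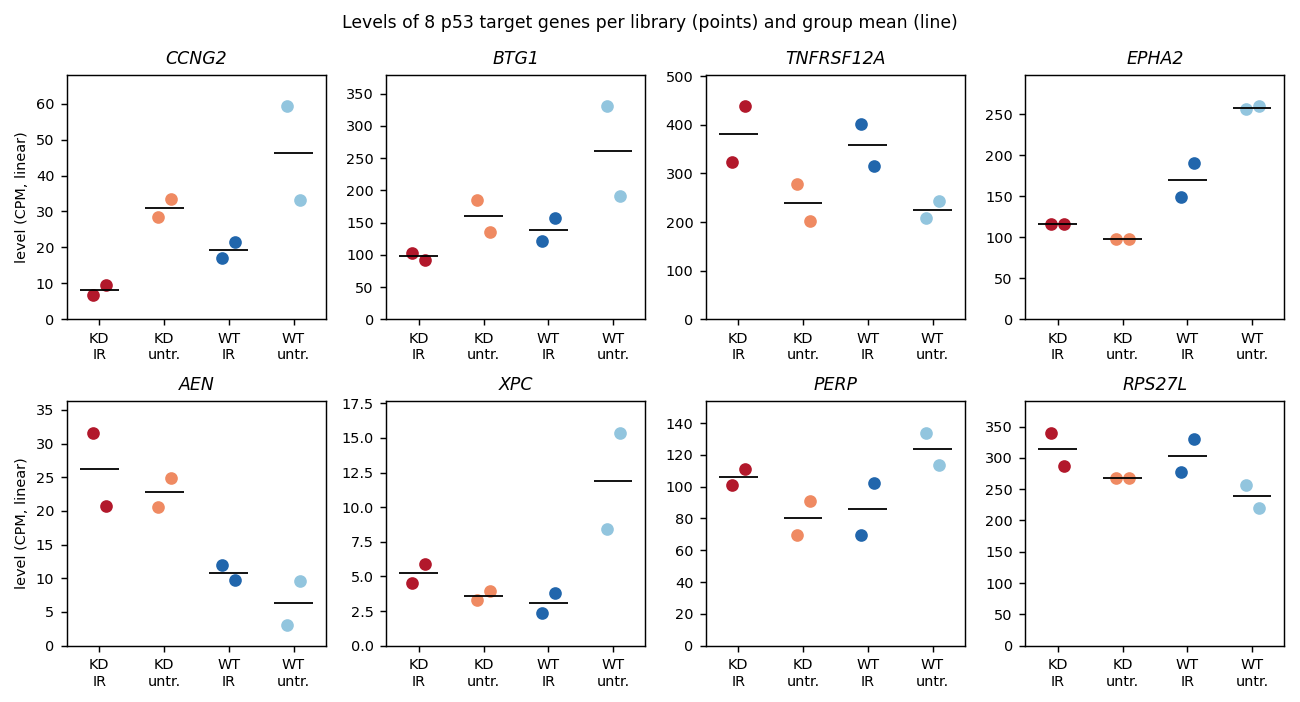
CPM on a linear scale in each library (points, 2 per group) with the group mean (line) for 8 members whose values are given in the text; IR is irradiated and untr. untreated. CCNG2 and BTG1 are lower and TNFRSF12A higher in the irradiated libraries of both genotypes, and EPHA2 and AEN separate KD from WT libraries.

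None of the 6 members of metabolism and redox passed the test after irradiation in either genotype. TIGAR, a phosphatase that lowers glycolytic flux and the most counted of these 6, had 23.8 and 28.8 CPM in irradiated KD libraries, against 19.1 and 28.4 CPM in untreated KD libraries. WT libraries held 16.5 and 16.2 CPM after irradiation, against 22.3 and 25.5 CPM without it. The KD groups overlapped, the WT groups did not, and neither difference passed (log2 0.16 and -0.53). The sestrins SESN1 and SESN2, which restrain mTORC1 under stress, differed by -1.0 and -0.63 in KD cells and by 0.94 and -1.11 in WT cells, with SEs of 0.547 to 0.766. FDXR, a mitochondrial electron carrier reductase, TP53I3, a quinone oxidoreductase, and RRM2B, a ribonucleotide reductase subunit that supplies nucleotides for repair, lay between -0.70 and 0.57 in both genotypes.

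None of the 4 DNA repair members passed either. XPC (ENSG00000154767.14, chromosome 3, 14145147 to 14178783), which recognises lesions for nucleotide excision repair, had 4.49 and 5.93 CPM in irradiated KD libraries, against 3.27 and 3.96 CPM in untreated KD libraries. Its levels in WT cells were 2.36 and 3.81 CPM irradiated, against 8.41 and 15.4 CPM untreated. The groups were apart in both genotypes, in opposite directions. The log2 difference was 0.54 in KD cells (SE 0.734, adjusted p = 0.907) and -1.92 in WT cells (SE 0.756, adjusted p = 0.251), and XPC overlaps LSM3. POLK, a translesion polymerase and the most counted repair member, had 21.6 and 22.8 CPM in irradiated KD libraries, against 31.7 and 18.1 CPM in untreated KD libraries. In irradiated WT libraries it had 15.3 and 20.7 CPM, against 18.0 and 25.2 CPM in untreated WT libraries. Both pairs of groups overlapped (log2 -0.16 and -0.24).

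DDB2, the member with the perfect promoter element, had 18.4 and 17.3 CPM in irradiated KD libraries, against 19.6 and 16.1 CPM in untreated KD libraries. Irradiated WT libraries stood at 11.2 and 18.5 CPM, against 9.89 and 8.96 CPM in untreated WT libraries. The KD groups overlapped and the WT groups did not, and neither difference passed (log2 0.01, SE 0.430 in KD cells; 0.68, SE 0.434, adjusted p = 0.528 in WT cells). POLH, the translesion polymerase for UV lesions, differed by -0.06 in KD cells and 0.90 in WT cells (adjusted p = 0.381).

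Of the 11 members of cell death and survival, 10 were tested and none passed after irradiation. RPS27L, a paralog of the ribosomal protein S27 and the most counted of them, had 340 and 287 CPM in irradiated KD libraries, against 269 and 268 CPM in untreated KD libraries. WT libraries held 277 and 330 CPM after irradiation, against 256 and 220 CPM without it. Irradiated libraries were higher without overlap in both genotypes, by a log2 difference of 0.23 in KD cells (SE 0.157, adjusted p = 0.705), 0.37 in WT cells (SE 0.157, adjusted p = 0.294) and 0.30 over both (SE 0.111, adjusted p = 0.208). RPS27L overlaps LACTB, and its reads can be hard to tell from those of its paralog.

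PERP, a membrane protein of desmosomes and an apoptosis effector, had 101 and 111 CPM in irradiated KD libraries, against 69.8 and 90.8 CPM in untreated KD libraries. Its levels in WT cells were 69.7 and 102 CPM irradiated, against 134 and 114 CPM untreated. The groups were apart in both genotypes, higher after irradiation in KD cells (log2 0.41, adjusted p = 0.634) and lower in WT cells (log2 -0.50, adjusted p = 0.334). AEN (ENSG00000181026.14, chromosome 15, 88621296 to 88632282), an exonuclease of apoptotic DNA fragmentation, had 31.6 and 20.8 CPM in irradiated KD libraries, against 20.6 and 24.9 CPM in untreated KD libraries. In irradiated WT libraries it had 11.9 and 9.81 CPM, against 3.01 and 9.66 CPM in untreated WT libraries. The KD groups overlapped, and the WT groups were barely apart (log2 0.21 and 0.79, adjusted p = 0.963 and 0.533).

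The initiator caspases CASP8 and CASP9 and APAF1, the core of the apoptosome, differed by -0.51, 0.10 and -0.46 in KD cells and by 0.25, -0.07 and -0.24 in WT cells. PHLDA3, an inhibitor of AKT, TP53INP1, a cofactor of autophagy and apoptosis, TRIAP1, an apoptosis inhibitor of mitochondria, and DRAM1, a lysosomal protein of autophagy, lay between -0.51 and 0.14 in both genotypes. FBXO22, a ubiquitin ligase subunit whose gene overlaps NRG4, had 27.6 and 30.8 CPM in irradiated KD libraries, against 42.8 and 32.8 CPM in untreated KD libraries. Irradiated WT libraries stood at 35.1 and 31.9 CPM, against 24.4 and 18.8 CPM in untreated WT libraries. It was lower after irradiation in KD cells and higher in WT cells, without overlap in either (log2 -0.37 and 0.66, adjusted p = 0.797 and 0.375). TRIM22, an interferon-induced ubiquitin ligase, had at most 9.50 CPM in any library.

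Whether the response to irradiation differed between genotypes was tested directly. None of the 37 members passed edgeR's test of this difference, against 0.185% of all genes; 4 had an unadjusted p under 0.05, against 9.5% of all genes (3 higher against 4.87%, 1 lower against 4.63%), DESeq2 called 1, which was EPHA2, against 1.28% of all genes, and limma 0, against 0.201%. The 4 were EPHA2 (log2 response in KD minus WT 0.83, SE 0.247, adjusted p = 0.27), PERP (0.91, SE 0.319, adjusted p = 0.367), XPC (2.46, SE 1.05, adjusted p = 0.475) and FBXO22 (-1.02, SE 0.446, adjusted p = 0.483). PLXNB2 (0.70, adjusted p = 0.551) and PLK3 (-2.12, adjusted p = 0.553) came next. For EPHA2, PERP and XPC the irradiated libraries lay above the untreated ones in KD cells and below them in WT cells. The 3 members that changed over both genotypes had differences of -0.66 (CCNG2), 0.17 (BTG1) and -0.02 (TNFRSF12A), with SEs of 0.519, 0.338 and 0.288, and the missed threshold does not show equal responses. The FBXO22 difference turned to 0.14 without the cells above 2 times the median.

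The genotypes also differed before irradiation. In untreated cells 2 of 37 members (5.41%) passed, EPHA2 lower and AEN higher in KD, against 9.94% of all genes (4.83% higher and 5.11% lower). At an unadjusted p under 0.05 there were 15 (40.5%), 6 of them higher and 9 lower, against 23.7% of all genes (11.6% higher and 12.1% lower). The median log2 difference was 0.09 over 36 members, 20 of them above 0, against 49.3% of all genes. The groups did not overlap for 22 members (59.5%), against 51.6% of all genes. The members' share was below that of all genes by edgeR's adjusted p and above it by both looser measures. It was also above with DESeq2, which called 8 (21.6%) against 14.8% of all genes, and below with limma, which called 4 (10.8%) against 12.1%. EPHA2, with values given above, averaged 97.9 ± 0.753 CPM in untreated KD libraries and 258 ± 2.61 CPM in untreated WT libraries (SD, n = 2 each; log2 -1.45, SE 0.178, adjusted p = 0.000128). AEN averaged 22.7 ± 3.01 CPM in untreated KD libraries and 6.34 ± 4.70 CPM in untreated WT libraries (SD, n = 2 each; log2 1.78, SE 0.521, adjusted p = 0.0412). In untreated WT replicate 1 a single cell held 65.8% of the AEN counts. The AEN call was lost under 5 of 17 alternatives, among them the limma fit on mean CPM per cell, the fit without cells above 2 times the median and those without untreated WT replicate 1 or untreated KD replicate 2, with adjusted p up to 0.685. Its log2 difference was 1.16 without untreated WT replicate 1, 2.87 without untreated WT replicate 2 and 0.57 without cells above 2 times the median.

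In irradiated cells 0 of 37 members passed edgeR's test between genotypes, against 5.1% of all genes; 12 (32.4%) had an unadjusted p under 0.05, 5 of them higher and 7 lower, against 18.5% of all genes (8.61% higher and 9.87% lower), and DESeq2 called 4, against 8.88% of all genes, and limma 2, against 5.94%. EPHA2 was again lower in KD cells, at 116 and 117 CPM against 149 and 191 CPM in WT cells (log2 -0.62, SE 0.175, adjusted p = 0.0561). CCNG2 was at 6.86 and 9.59 CPM in irradiated KD libraries against 17.2 and 21.4 CPM in irradiated WT libraries (log2 -1.30, SE 0.376, adjusted p = 0.062). The groups did not overlap for 21 members (56.8%), against 52.2% of all genes, and the median log2 difference was -0.01 over 36 members, 18 of them above 0, against 49.7% of all genes.

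Other members below the unadjusted 0.05 in both treatments were GADD45A, SESN2, GADD45B, BTG1 and TP53INP1. GADD45A had log2 differences of 1.22 untreated (adjusted p = 0.0544) and 0.84 irradiated (adjusted p = 0.242), and SESN2 of 1.37 (adjusted p = 0.143) and 1.85 (adjusted p = 0.0827). Both were higher in KD, and their groups did not overlap in either treatment. In untreated cells GADD45A passed under 12 of 18 alternatives, with adjusted p of 0.000229 to 0.238. For SESN2 a single cell held 66.3% of the counts of untreated KD replicate 1, and the untreated log2 difference was 0.50 without that library and 2.43 without cells above 2 times the median. GADD45B, at -1.26 and -1.09, BTG1, at -0.75 and -0.58, and TP53INP1, at -1.37 and -2.02, were lower in KD, with no overlap in either treatment. AEN also met it in irradiated cells (1.20, adjusted p = 0.218). TRIM22 had 1.31 and 1.39 CPM in irradiated KD libraries and 1.11 and 0 CPM in untreated KD libraries, against 3.97 and 9.50 CPM in irradiated WT libraries and 7.13 and 5.46 CPM in untreated WT libraries. All its KD libraries lay below all WT libraries, on few counts, and neither difference passed (adjusted p = 0.344 irradiated and 0.115 untreated).

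**Figure D3:**
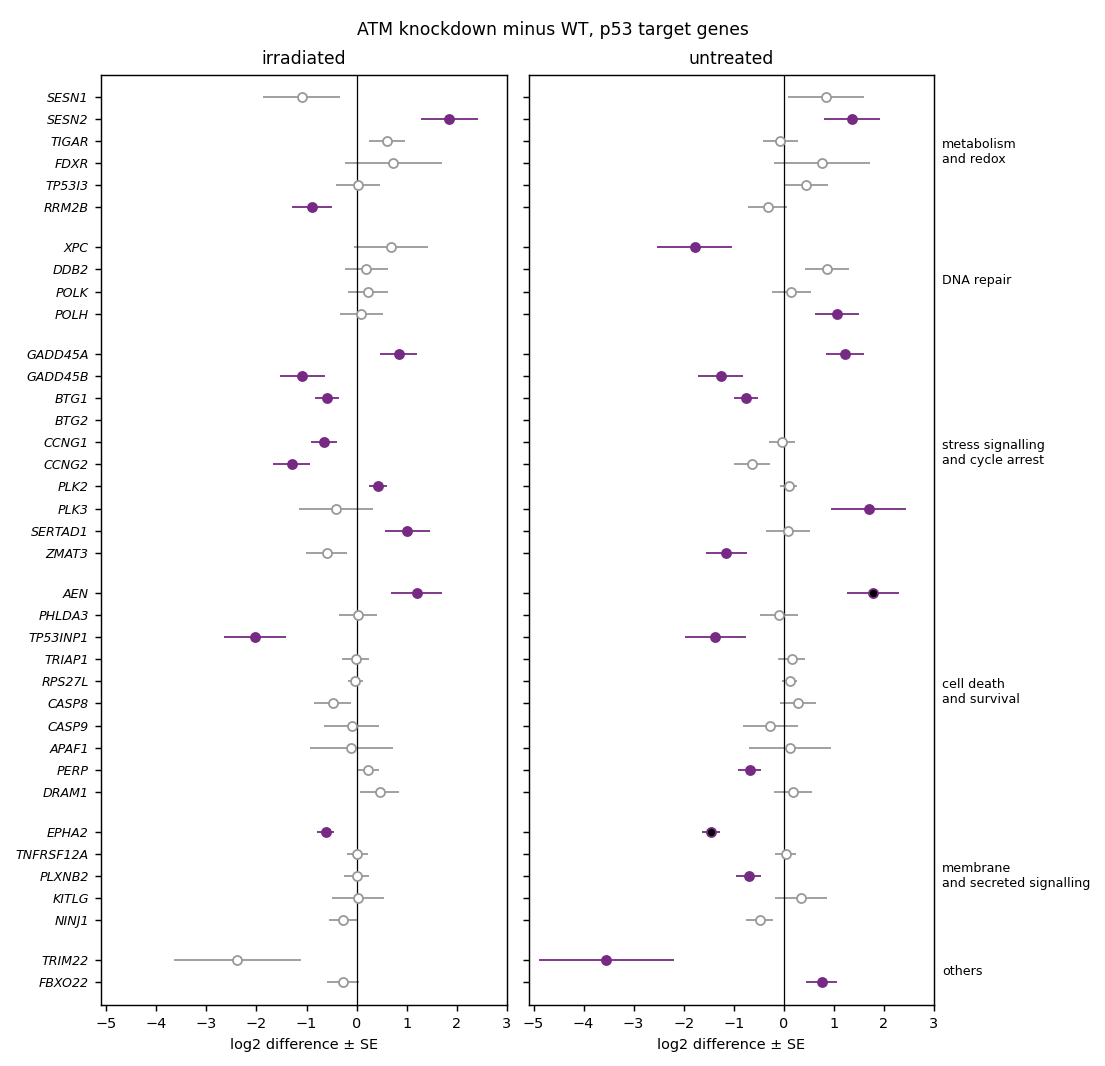
Log2 difference (points) with its SE (lines), KD minus WT, in irradiated cells (left) and untreated cells (right), for the members by role; filled points have an unadjusted p under 0.05, a black centre marks an adjusted p under 0.05, and BTG2 has no fold. EPHA2 and AEN are the points with a black centre, both in untreated cells.

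The share of cells with a count was compared at 1 depth, after drawing 71000 counts from each of 327 kept cells and leaving out 36 shallower ones. At this depth 10 members were seen in at least 50% of the cells of every library, 2 (BTG2 and SPATA18) in under 10% of every library, and 26 lay between. The exact (Clopper-Pearson) 95% intervals of these shares had a half-width, taken as 50% of the full width, of up to 17.8 percentage points. They treat the cells of a library as independent and do not cover the spread between libraries. CCNG2 was seen in 18.6% and 17.5% of irradiated KD cells, against 51.5% and 48.7% of untreated KD cells, and in 32.4% and 41.3% of irradiated WT cells, against 72.1% and 54.3% of untreated WT cells. Its median level over all kept cells was 0 in both irradiated KD libraries. The lower CCNG2 sums went with fewer cells holding a count in both genotypes. EPHA2 was seen in 84.8% and 64.1% of untreated KD cells, against 97.7% and 100% of untreated WT cells.

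AEN was seen in 53.5% and 50% of irradiated KD cells, against 18.2% and 35.9% of untreated KD cells, although its summed levels overlapped between these groups. XPC was seen in 8.11% and 19.6% of irradiated WT cells, against 39.5% and 37.0% of untreated WT cells. GADD45B was seen in 18.2% and 28.2% of untreated KD cells, against 76.7% and 54.3% of untreated WT cells. These groups did not overlap. The irradiated libraries' shares lay above the untreated ones for 16 of the 38 members and below them for 2 in KD cells, against 40.1% and 7.27% of all genes. In WT cells they lay above for 6 and below for 5, against 22.9% and 14.9% of all genes. Untreated KD libraries lay above untreated WT libraries for 6 members and below for 14, against 16.7% and 29.6% of all genes. Irradiated KD libraries lay above irradiated WT libraries for 11 and below for 9, against 26.6% and 17.8% of all genes.

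**Figure D4:**
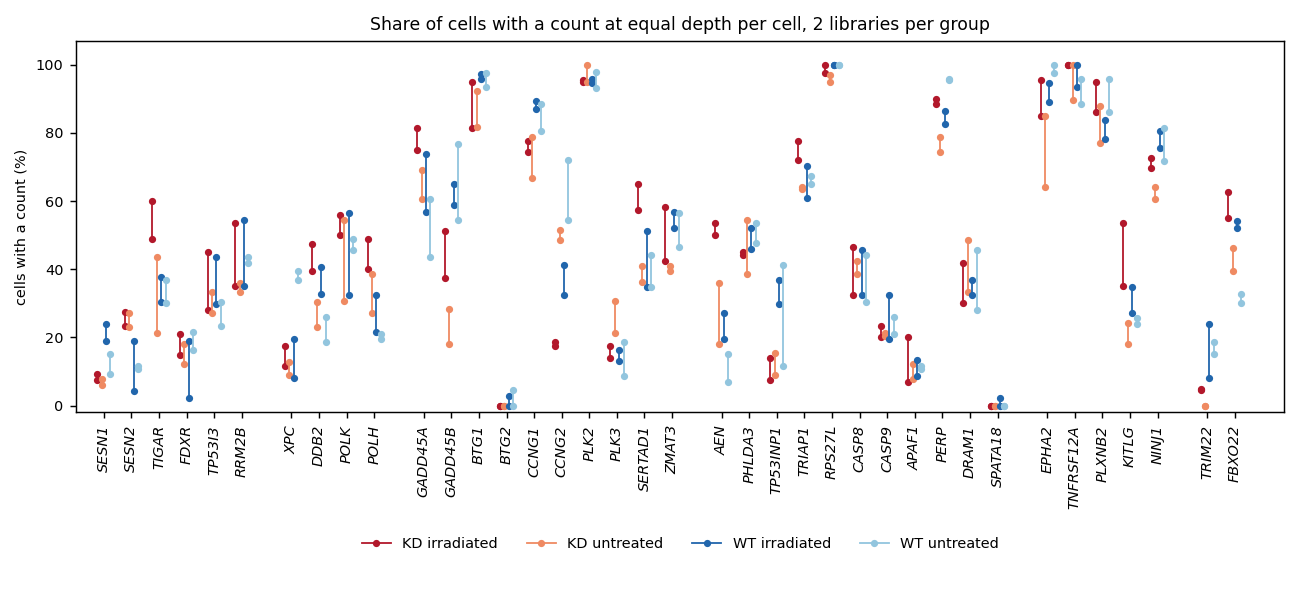
Share of cells with a count (%) for each member after thinning to 71000 counts per cell; points are the 2 libraries of a group, joined by a line, with irradiated KD, untreated KD, irradiated WT and untreated WT from left to right. CCNG2 is lowest in irradiated KD cells, XPC highest in untreated WT cells, and PLK2, RPS27L and TNFRSF12A are near 100% in most libraries.

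Single cells held 7 to 29 of the 38 members at this depth. The mean per cell was 18.1 ± 0.421 in irradiated KD libraries and 15.7 ± 0.094 in untreated KD libraries, against 17.5 ± 0.071 in irradiated WT libraries and 17.3 ± 0.013 in untreated WT libraries (SD, n = 2 each). All coding genes moved with it: 5871 ± 142 genes were seen per irradiated KD cell and 5192 ± 114 per untreated KD cell, against 5664 ± 83.8 per irradiated WT cell and 5493 ± 119 per untreated WT cell. Per 1000 detected genes the members numbered 3.08 in irradiated KD and 3.03 in untreated KD libraries, against 3.10 in irradiated WT and 3.14 in untreated WT libraries. The members' share of all counts was 0.177% to 0.229% in the 8 libraries. The larger number of members in irradiated KD cells stood beside a larger number of coding genes seen per cell.

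**Figure D5:**
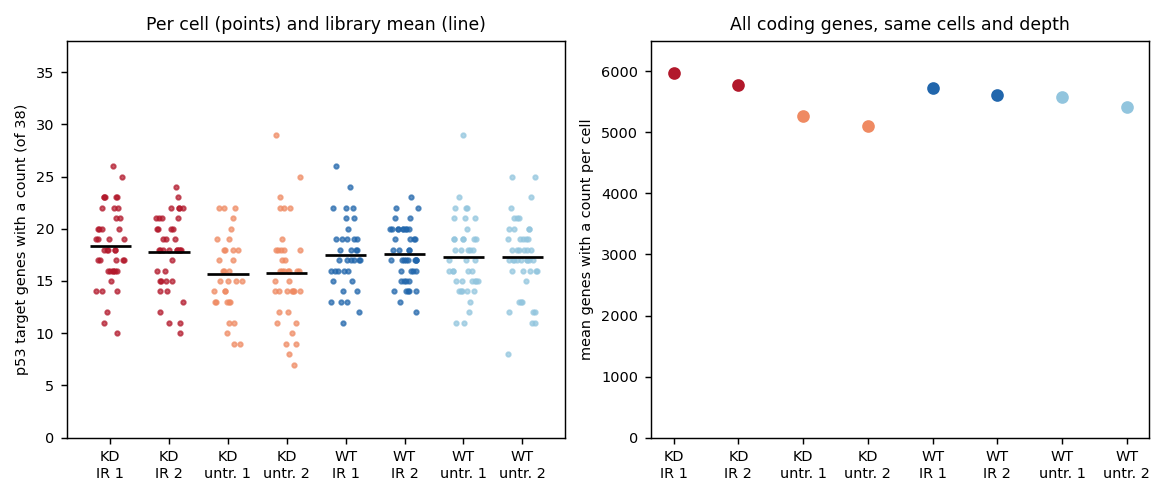
Left, number of the 38 members with a count in each thinned cell (points) and the library mean (line); right, mean number of coding genes with a count per cell in the same libraries. In both panels the untreated KD libraries are lowest and the irradiated KD libraries highest.

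Correlations between members from cell to cell were weak. Over the 10 members seen in at least 50% of cells everywhere, the 45 pairs had median Spearman correlations across the cells of a library of -0.171 (CCNG1 with PLK2) to 0.168 (PLXNB2 with NINJ1). None of the 45 pairs was positive in all 8 libraries or had a median over 0.3. Cells of a library share its preparation and the counts are sparse, so this is a description.

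Other genes of the pathway were tested in the same fit. Of 36 further p53 targets 33 were tested, and of 20 regulators of p53 19 were. None of either list passed after irradiation in KD or WT cells, against the 0.225% and 1.65% of all genes given above. Over the further targets the median log2 difference was -0.17 in KD cells and -0.16 in WT cells, beside 0.01 and -0.01 over all genes. The difference was above 0 for 12 of 33 in each, against 50.8% and 48.8% of all genes. With an unadjusted p under 0.05 there were 4 further targets in KD cells (3 higher, 1 lower) and 2 in WT cells (1 higher, 1 lower). Of the regulators there were 0 in KD cells and 2 in WT cells, both higher. The shares of all genes were 8.86% in KD cells (4.05% higher, 4.81% lower) and 13.9% in WT cells (7.52% higher, 6.4% lower). CDKN1A, the inhibitor of cyclin-dependent kinases, differed by -0.58 in KD cells (adjusted p = 0.622) and 0.12 in WT cells (adjusted p = 0.922). MDM2, the ubiquitin ligase of p53, differed by 0.10 (adjusted p = 0.984) and -0.48 (adjusted p = 0.637).

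Between genotypes, HIPK2, a kinase that phosphorylates p53, was higher in KD cells both irradiated (log2 1.13, adjusted p = 0.00599) and untreated (log2 1.10, adjusted p = 0.00384). CHEK1, the checkpoint kinase CHK1, was lower in irradiated KD cells (log2 -1.23, adjusted p = 0.0256). CDKN1A was higher in untreated KD cells (log2 1.40, adjusted p = 0.0109), at 132 and 95.2 CPM against 55.4 and 27.8 CPM in untreated WT cells. PGF, a growth factor of the VEGF family, was lower in untreated KD cells (log2 -2.47, adjusted p = 0.0297). No other gene of these lists passed in either comparison of genotypes, so PGF was the only one of the further targets. Beside these calls, 9.94% of all genes tested passed in untreated cells and 5.1% in irradiated cells.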

How the data were processed

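The authors deposited whole-number counts per coding gene and cell for 8 libraries. Per the submitters' processing notes, Trimmomatic 0.36, HISAT2 2.1.0, HTSeq 0.9.1 and the hg38 build were used; whether counts are reads or molecules, and whether strand was used, is not given in the sources used here. Genes that a table does not list count as 0 there.

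Counts of cells with at least 1000 genes and 5000 counts were summed per library. edgeR 4.0.16 was used for filterByExpr, TMM factors and the quasi-likelihood test, fitted to the 4 groups together, with Benjamini-Hochberg adjustment over every gene tested. The fit had 4 residual degrees of freedom and a common BCV of 0.458. Its steps were run on simulated counts drawn with the spread fitted to these same libraries. Such a run checks the steps only. It cannot show how the test behaves if the 2 libraries of a group are technical replicates. CPM are per 1000000 counts of the library. A library's depth sets its precision: 3 counts are 0.124 to 0.322 CPM. Cells were thinned with a fixed seed, doublets were not called since cells were picked singly, and no cell name was shared between libraries.

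Values in every library are given for members past the threshold in any contrast, for the 6 members with the smallest p in each irradiation contrast (KD, WT and their difference) and for the most counted member of each role; the median of a list leaves out genes at 0 in a whole group. DDB2, GADD45A, GADD45B, SESN2, TP53INP1 and TRIM22 were described further after their values were seen. The members, role groups and other lists were chosen with earlier results of these data known. COP1 was found under its older symbol, and ACER2 is in no table. Alternatives were DESeq2 1.42.0 (size factors or Wald test), no scaling, other filters on genes and cells, fits limited to the compared groups, limma 3.58.1 on log2(mean CPM per cell + 1) and each library left out. R 4.3.3, Python 3.11.15, numpy 2.4.6, pandas 2.3.3, scipy 1.17.1 and matplotlib 3.10.9 were used. Positions are from GENCODE 29 (GRCh38).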

Additional observations from a re-analysis of the deposited data

How the results depend on the processing

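CCNG2 and BTG1 over both genotypes (16 and 17 alternatives) and EPHA2 between untreated genotypes (18) passed under every alternative that could be fitted, while TNFRSF12A and AEN did not, as given in the report. The number of members past the threshold moved more, and so did the share of all genes, given in brackets. After irradiation of KD cells it was 3 with no filter on low counts (1.57%), 1 with DESeq2 (1.42%), limma (0.979%) or without cells above 2 times the median (0.573%), and 0 to 1 with a library left out (0.332% to 1.08%), against 0 (0.225%). In WT cells it was 3 with no filter (3.55%), 2 with a higher filter (average log2 CPM of 5 or more; 6.4%), 4 with DESeq2 (4.7%) and 0 to 2 with a library left out (0.678% to 2.84%), against 0 (1.65%). For the difference in response it was 1 with DESeq2 (1.28%) and 0 with a library left out (0.234% to 0.973%), and over both genotypes 2 to 3 with a library left out (1.04% to 2.85%). Between untreated genotypes it was 9 of 38 with no filter (11.2%), 5 of 11 with the higher filter (22.7%), 8 with DESeq2 (14.8%), 4 with limma (12.1%), 1 with only these groups fitted (6.1%), 4 without the largest cells (8.99%) and 4 to 5 with a library left out (7.34% to 10.5%), against 2 (9.94%), so whether the members' share lay below or above that of all genes turned with the fit. Between irradiated genotypes it was 5 with no filter (6.95%), 1 with the higher filter (15.4%), 4 with DESeq2 (8.88%), 2 with limma (5.94%), 2 without the largest cells (5.35%) and 0 to 4 with a library left out (2.33% to 7.46%), against 0 (5.1%). Without the largest cells FBXO22 reversed, to 0.14 for the difference in response and -0.22 between untreated genotypes. The difference in members per thinned cell, irradiated minus untreated, was 2.39 in KD cells, 1.36 at a lower depth of 44000 counts, 3.14 without the largest cells and 2.097 to 2.69 with a library left out. In WT cells it was 0.267, 0.901 at the lower depth and 0.217 to 0.317 with a library left out. The causes were not tested, beyond fewer genes being tested with the higher filter and fewer libraries when some are left out. Scaling moved the median of all genes by at most 0.0649. No paired analysis was possible because the labels give the libraries no shared replicate numbers. With 2 libraries a group, and a median of 144943 counts per cell in irradiated WT replicate 1, members of few counts (APAF1, BTG2, FDXR, PLK3, SESN1, SPATA18, TRIM22, XPC) are the least certain.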
